A study of Saccharomyces cerevisiae with 6 samples.

Results

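The COS genes encode a family of membrane proteins of budding yeast, most of them near the ends of chromosomes. The family members measured here are COS1, COS2, COS3, COS4, COS5, COS6, COS7, COS8, COS9 and COS12, 10 of the 6256 gene probes on the array and 10 of the 6232 that entered the tests. They were taken as the gene probes that carry these names, and the family was chosen by its measured values in these samples, a high log2 ratio to wild type in mot1-14 and a ratio near or below wild type in the bypass strains. Values against wild type are therefore a description, with no test, and so are differences of the bypass strains from mot1-14. The choice did not ask for a difference between the bypass strains, and that difference was tested. It is formed from values that the choice used, so the test is not independent of the choice. RNA came from Saccharomyces cerevisiae grown in rich medium at 30 °C. The strains were TBP-F207L and TBP-Y185C, each carrying a variant of the TATA-binding protein (TBP) that lets cells live without Mot1, the mutant mot1-14, and wild-type MOT1 (WT). Per the labels, all strains were the parent AY138 after selection on 5-fluoroorotic acid, with the plasmid pTBP-F207L, pTBP-Y185C, pMOT244 (mot1-14) or pAV20 (WT). Each mutant was hybridised against WT on 2 two-colour arrays with the dyes exchanged, the mutant in Cy5 on array 1 and in Cy3 on array 2.

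Cos proteins span the membrane several times and travel through endosomes to the vacuole, the yeast lysosome. They carry ubiquitin themselves and help other membrane proteins, including some without ubiquitin of their own, enter the multivesicular bodies that deliver cargo for degradation. The copies resemble each other closely in sequence, so the probe of one COS gene may bind RNA of another. Genes near chromosome ends can also be held down by silencing factors such as the Sir proteins. Mot1 is an ATPase that takes TBP off DNA, and TBP is the factor that recruits RNA polymerase to promoters.

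Over the 6 arrays, the signal-to-background ratio of the median gene spot was 8.05 to 22.7 in red and 6.74 to 10.8 in green. The ratios of the 2 arrays of a strain correlated across genes at r = 0.940 for TBP-F207L, 0.957 for TBP-Y185C and 0.925 for mot1-14. MOT1 had a log2 ratio to WT of -2.58 in TBP-F207L, -3.51 in TBP-Y185C and 2.17 in mot1-14. SPT15, which encodes TBP, had a log2 ratio of 3.63 in TBP-F207L, 4.08 in TBP-Y185C and -0.36 in mot1-14. Both arrays of a mutant lay on 1 slide, so slide and mutant cannot be told apart. Nothing in the labels says that a strain's arrays used RNA of separate cultures, and p-values then cover only array-to-array spread, which may be technical. In RNA from whole cultures, fewer cells that express a gene and less RNA per cell cannot be told apart.

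The COS genes stood above WT in mot1-14 and near or below it in the bypass strains, which is the pattern they were chosen for. The family median of the log2 ratio was -0.19 in TBP-F207L, 0.06 in TBP-Y185C and 1.17 in mot1-14, the last a 2.25-fold excess over WT. The median over all genes tested was between -0.01 and 0 in each strain. On single arrays the family median was -0.18 and -0.25 in TBP-F207L, 0.05 and 0.11 in TBP-Y185C, and 1.09 and 1.20 in mot1-14. The 2 dye orientations thus put the family at nearly the same level in each strain. Relative to mot1-14, the family median differed by a log2 of -1.39 in TBP-F207L and -0.89 in TBP-Y185C.

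**Figure D1:**
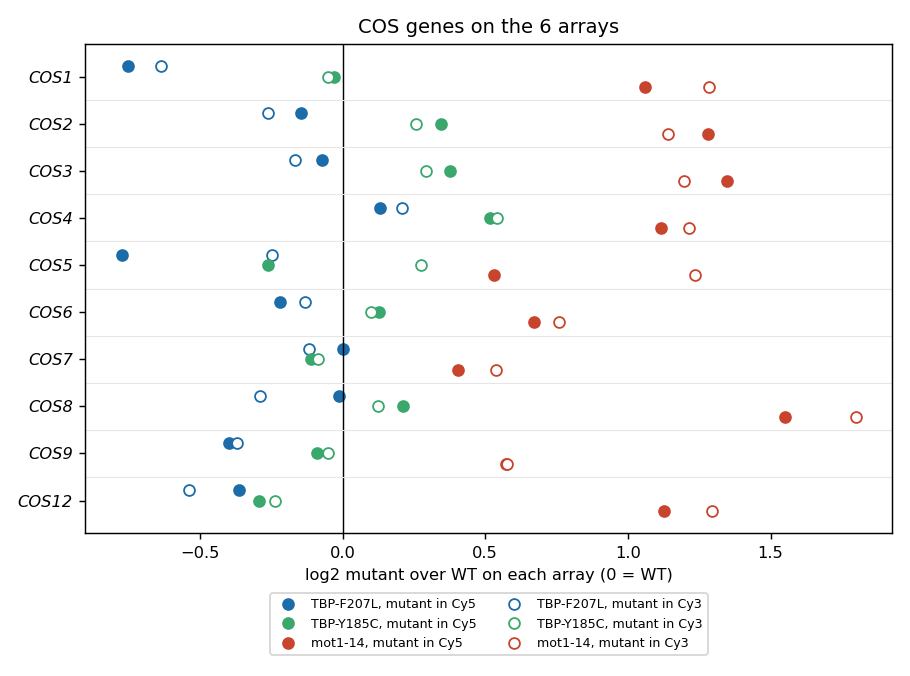
Log2 ratio of each COS gene to WT on each of the 6 arrays (x axis), with 1 row per gene, TBP-F207L in blue, TBP-Y185C in green and mot1-14 in red; filled circles have the mutant in Cy5 and open circles in Cy3. All mot1-14 points lie to the right of every bypass point of the same gene.

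All 10 members were above WT on both mot1-14 arrays, as were 40.3% of all genes. A log2 ratio of 0.5 or more on both arrays was met by 9 of 10 members, the exception being COS7, and by 11.8% of all genes. A ratio of 1 or more on both was met by 6 of 10, COS1, COS2, COS3, COS4, COS8 and COS12, and by 3.79% of all genes. The family was chosen on this contrast, so nothing further is read from these counts. The fitted values in mot1-14 ran from 0.47 for COS7 to 1.68 for COS8, with standard errors of 0.03 to 0.08 over 2 arrays.

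**Figure D2:**
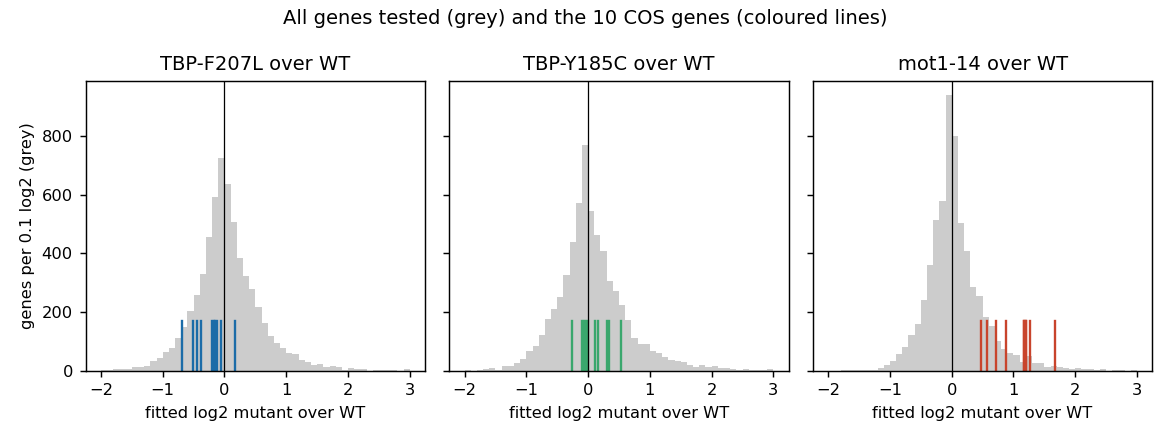
Fitted log2 ratio to WT in TBP-F207L, TBP-Y185C and mot1-14 (left to right), with the number of genes per bin in grey. Each of the 10 COS genes is a coloured line whose height has no meaning. Genes beyond the plotted range are counted in the end bins. The COS lines lie from -0.70 to 0.17 in TBP-F207L, from -0.27 to 0.53 in TBP-Y185C and from 0.47 to 1.68 in mot1-14.

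COS2 and COS3 had the brightest probes of the family, with WT signals of 54.7 to 90.2 and 68.8 to 128 times background. COS2 had log2 ratios of -0.15 and -0.26 in TBP-F207L, 0.35 and 0.26 in TBP-Y185C, and 1.28 and 1.14 in mot1-14. COS3 had -0.07 and -0.17 in TBP-F207L, 0.38 and 0.29 in TBP-Y185C, and 1.35 and 1.19 in mot1-14. Both genes were below WT on the TBP-F207L arrays, above it on the TBP-Y185C arrays and highest on the mot1-14 arrays, with no overlap between strains. COS6 followed the same order at smaller size, with log2 ratios of -0.22 and -0.13 in TBP-F207L, 0.13 and 0.10 in TBP-Y185C, and 0.67 and 0.76 in mot1-14. For COS2, COS3 and COS6 the bypass strains thus lay on opposite sides of WT on all their arrays.

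COS4 was the one member above WT on all 6 arrays. Its log2 ratios were 0.13 and 0.21 in TBP-F207L, 0.52 and 0.54 in TBP-Y185C, and 1.11 and 1.21 in mot1-14. The fitted value in TBP-Y185C, 0.53, was a 1.44-fold excess over WT, the highest of the family in that strain, and 45.4% of the log2 ratio in mot1-14. In TBP-F207L the fitted value of 0.17 was 14.5% of that in mot1-14.

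COS1 and COS9 were at WT level or slightly below it in TBP-Y185C and lower in TBP-F207L. COS1 had log2 ratios of -0.75 and -0.64 in TBP-F207L, -0.03 and -0.05 in TBP-Y185C, and 1.06 and 1.28 in mot1-14. Its fitted value in TBP-F207L, a 0.618-fold level relative to WT, was the lowest of the family. COS9 had -0.40 and -0.37 in TBP-F207L, -0.09 and -0.05 in TBP-Y185C, and 0.57 and 0.58 in mot1-14. Its arrays of a strain differed by no more than 0.04, and the 3 strains did not overlap, a separation not counted over all genes.

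COS5 depended on the dye more than the other members. Its log2 ratios were -0.77 and -0.25 in TBP-F207L, -0.26 and 0.27 in TBP-Y185C, and 0.53 and 1.24 in mot1-14, array 1 being the lower of each pair. The fitted dye effect was -0.29, and 0.321% of genes had a larger one in size. With the dye effect taken out, the fitted values were -0.51 in TBP-F207L, 0.01 in TBP-Y185C and 0.88 in mot1-14. The arrays of the bypass strains overlapped for COS5 unless arrays of the same dye orientation were compared.

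COS7, COS8 and COS12 had the dimmest probes, although they passed the scanner software's test for signal above background in both channels on all 6 arrays. COS8 had log2 ratios of -0.01 and -0.29 in TBP-F207L, 0.21 and 0.12 in TBP-Y185C, and 1.55 and 1.80 in mot1-14, where its fitted value was a 3.19-fold excess over WT. COS12 had -0.36 and -0.54 in TBP-F207L, -0.30 and -0.24 in TBP-Y185C, and 1.13 and 1.29 in mot1-14. COS7 had 0.00 and -0.12 in TBP-F207L, -0.11 and -0.09 in TBP-Y185C, and 0.40 and 0.54 in mot1-14. COS12 was therefore below WT on every bypass array, and the COS7 values in the bypass strains were within 0.12 of WT on this scale.

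The values of these 3 dim members depended on how background was handled. Their WT signals were 1.33 to 3.80 times background for COS7, 2.20 to 5.01 times for COS8 and 1.89 to 3.15 times for COS12. In the deposited log ratios, which start from background-subtracted signals, COS12 averaged -1.33 in TBP-F207L, -0.82 in TBP-Y185C and 2.20 in mot1-14. In the same log ratios COS7 averaged -0.51 in TBP-F207L, -0.40 in TBP-Y185C and 1.48 in mot1-14. COS8 averaged -0.24 in TBP-F207L, 0.29 in TBP-Y185C and 2.48 in mot1-14. Sizes for these genes are thus uncertain by more than their standard errors. In mot1-14 the members with brighter probes moved little. In the bypass strains some of those moved by more than their standard error, as COS1 did in TBP-F207L, from -0.70 to -0.82. COS8 had 2 spots on each array, which differed from each other by 0.44 on array 2 of mot1-14 and by 0.06 to 0.24 on the others.

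**Figure D3:**
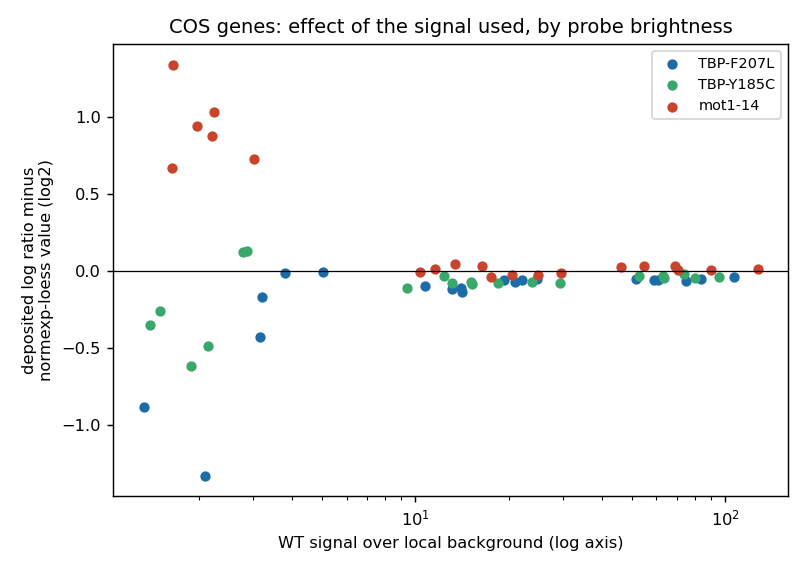
Deposited log ratio minus the background-corrected, loess-normalized value (y axis, log2) against the WT signal over local background (x axis, log scale) for each COS gene on each array; blue is TBP-F207L, green TBP-Y185C and red mot1-14. Points far from 0 belong to COS7, COS8 and COS12, whose WT signals are at most 5.01 times background.

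Counted over both arrays against WT, the bypass strains differed in where they placed the family. In TBP-F207L, 9 of 10 members were below WT on both arrays, against 42.2% of all genes, and 1 member, COS4, was above it, against 43.7% of all genes. At -0.5 or less on both arrays there was 1 member, COS1, against 9.64% of all genes. In TBP-Y185C, 5 members were above WT on both arrays (COS2, COS3, COS4, COS6 and COS8), against 44% of all genes, and 4 were below (COS1, COS7, COS9 and COS12), against 43.1%. Beyond 0.5 in size on both TBP-Y185C arrays there was 1 member above, COS4, with 15.1% of all genes, and there were 0 members below, with 10.1% of all genes. The family's share below WT in TBP-Y185C is near that of all genes, and these counts come from contrasts used in choosing it.

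The direct comparison of the bypass strains gave lower COS levels in TBP-F207L than in TBP-Y185C. The family was chosen on its values in both strains, though not on their difference. By limma with Benjamini-Hochberg adjustment over all genes, 7 of 10 members were lower in TBP-F207L, against 21.8% of all genes, and 0 were higher, against 15.4% of all genes. The 7 were COS1, COS2, COS3, COS4, COS5, COS6 and COS9. How far probes of similar COS copies share signal could not be computed, so the 7 may not be separate results. The difference was -0.65 for COS1 (adjusted p = 0.00115, limma), a 0.635-fold level, and -0.51 for COS2 (adjusted p = 0.000951, limma). For COS5 it was -0.52 (adjusted p = 0.00158, limma), for COS3 -0.45 (adjusted p = 0.00129, limma) and for COS4 -0.36 (adjusted p = 0.0024, limma). COS9 and COS6 differed least among the 7, by -0.31 (adjusted p = 0.00328, limma) and -0.29 (adjusted p = 0.00671, limma). The family median of this difference was -0.34, and the median over all genes was within 0.01 of 0.

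The other 3 members, those with the dimmest probes, did not pass. COS8 had a difference of -0.32 with a 95% interval of -0.58 to -0.05 and an adjusted p of 0.0622 (limma). COS12 had -0.18 with an interval of -0.38 to 0.01 (adjusted p = 0.116, limma). COS7 had 0.04 with an interval of -0.12 to 0.20 (adjusted p = 0.661, limma). Without array 1 of TBP-F207L, COS8 differed by -0.50 and passed (adjusted p = 0.00127, limma), and so did COS12, by -0.33 (adjusted p = 0.00341, limma). Without array 2 of TBP-F207L the differences were -0.14 for COS8 (adjusted p = 0.248, limma) and -0.041 for COS12 (adjusted p = 0.674, limma), and neither passed. COS8 also passed without either mot1-14 array, at the same difference (adjusted p = 0.0125, limma). The intervals of COS8 and COS12 include differences as large as that of COS4, so these data do not show that the bypass strains are alike for them.

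**Figure D4:**
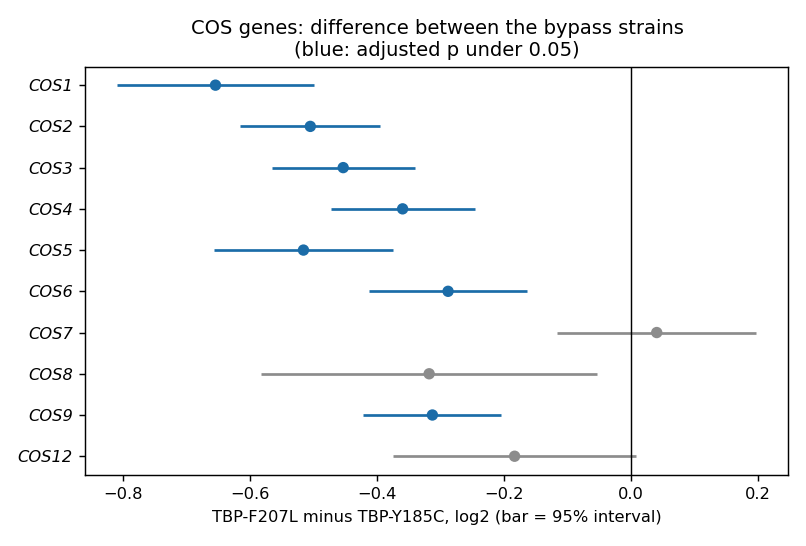
TBP-F207L minus TBP-Y185C for each COS gene (x axis, log2), with bars for the 95% interval from limma; blue marks an adjusted p under 0.05 and grey the rest. The 7 blue intervals lie below 0, and those of COS7 and COS12 cross it.

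The order of the bypass strains was the same for most members on single arrays. On all arrays, TBP-F207L lay below TBP-Y185C for 8 of 10 members, against 27.3% of all genes, and at matched dye orientation for 9 of 10, against 41.1%. The fitted difference was below 0 for 9 of 10 members, against 51.2% of all genes. The fitted order TBP-F207L below TBP-Y185C below mot1-14 held for 9 of 10 members, against 24% of all genes, though its last step was used to choose the family. The calls rest on taking out each probe's dye effect: in a model with no dye term 1 of the 7 passed, COS1 (adjusted p = 0.0454, limma), and the other 6 had adjusted p-values of 0.0532 to 0.378 (limma) at the same differences. Without array 1 of TBP-Y185C, COS6 had a difference of -0.23 and did not pass (adjusted p = 0.0698, limma). All mutants were set against the same WT strain, but the labels do not say whether the WT RNA was the same. Its own spread is not part of the test. A difference between WT RNAs could not be told apart from one between the bypass strains.

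All 10 members lie near chromosome ends in the R64 gene order, on 9 chromosomes. COS2, COS5, COS7 and COS12 are the outermost protein-coding genes of an arm of chromosomes II, X, IV and VII, and COS1, COS3 and COS6 are the second outermost on XIV, XIII and VII. COS8, COS9 and COS4 are further in, at places 4, 5 and 6 on chromosomes VIII, XI and VI. COS8, at place 4, had the highest ratio in mot1-14 (1.68). COS7, an outermost gene, had the lowest (0.47), while in the deposited log ratios its 1.48 was exceeded only by COS8 (2.48) and COS12 (2.20).

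The genes beside the COS genes mostly rose in all 3 mutants, and only some were lower in the bypass strains than in mot1-14. Of 16 adjacent genes that are not members, 15 were measured. In TBP-F207L 11 rose, 0 fell and 4 did not pass. In TBP-Y185C 13 rose and 2 fell, and in mot1-14 13 rose, 0 fell and 2 did not pass. The same tests over all genes gave 40.3% higher and 38.8% lower in TBP-F207L, 41% higher and 38.8% lower in TBP-Y185C, and 37.2% higher and 34.9% lower in mot1-14. The median of the neighbours was 0.19 in TBP-F207L, 0.29 in TBP-Y185C and 0.26 in mot1-14, so in mot1-14 it was well under the family's 1.17.

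The neighbours that differed in the family's direction were 4 genes lower in TBP-F207L than in mot1-14, against 29% of all genes, while 3 were higher, against 28.8%, shares of 15 near those of all genes. The 4 were PAU24 beside COS2, PAU12 beside COS6, ARN2 beside COS8 and YGL262W beside COS12. YGL262W, an uncharacterised gene, had log2 ratios of 0.09 in TBP-F207L, 0.29 in TBP-Y185C and 0.98 in mot1-14. ARN2, a siderophore transporter gene, had 0.04 in TBP-F207L, 0.48 in TBP-Y185C and 0.50 in mot1-14. PAU24 and PAU12, of the seripauperin cell wall protein family, had 0.03 and 0.11 in TBP-F207L, 0.29 and 0.41 in TBP-Y185C, and 0.48 and 0.51 in mot1-14. In TBP-F207L against TBP-Y185C 4 neighbours were lower, against 21.8% of all genes, and 3 were higher, against 15.4%. The lower ones were ARN2, PAU24, PAU12 and YML131W beside COS3, the last of which had 0.09 in TBP-F207L, 0.70 in TBP-Y185C and 0.26 in mot1-14. The 3 that were higher in TBP-F207L were the same against TBP-Y185C and against mot1-14, and lie on the chromosome-end side of a COS gene: YRF1-6 beside COS1, YML133C beside COS3 and YRF1-3 beside COS6. These had 0.39, 0.65 and 0.38 in TBP-F207L, -0.15, 0.12 and -0.19 in TBP-Y185C, and 0.01, 0.17 and -0.02 in mot1-14. YRF1 genes encode helicases of the telomeric Y' elements and are near-identical copies, so their values are uncertain.

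Other neighbours did not share the family's order. DDI2 beside COS1 and DDI3 beside COS4, near-identical cyanamide hydratase genes, had 1.18 and 1.28 in TBP-F207L, 1.44 and 1.50 in TBP-Y185C, and 1.01 and 0.99 in mot1-14. They rose in all 3 mutants, where COS1 was below WT in TBP-F207L. MPH3 beside COS5 and MPH2 beside COS7, near-identical maltose permease genes, had 0.19 and 0.21 in TBP-F207L, 0.20 and 0.20 in TBP-Y185C, and 0.16 and 0.19 in mot1-14. SRY1, a 3-hydroxyaspartate dehydratase gene beside COS9, had 0.37 in TBP-F207L, 0.37 in TBP-Y185C and 0.53 in mot1-14. FRE2, a ferric reductase gene on the other side of COS9, had 0.13, 0.18 and 0.16 in the same strains, and YFL064C beside COS4 had 0.18, 0.26 and 0.17. Between TBP-Y185C and mot1-14, 3 neighbours were lower in TBP-Y185C, against 23.4% of all genes, and 3 were higher, against 25.7%.

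**Figure D5:**
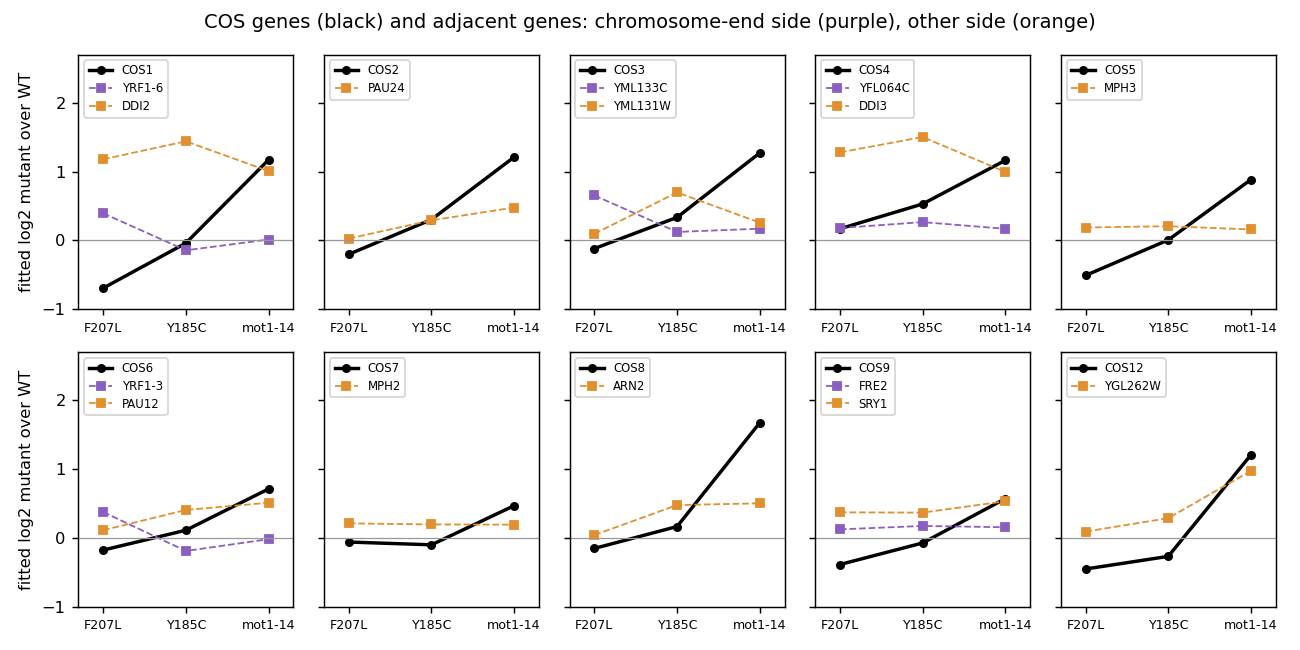
Fitted log2 ratio to WT (y axis) in TBP-F207L, TBP-Y185C and mot1-14 (x axis) for each COS gene in black and its measured adjacent genes in purple (chromosome-end side) or orange (other side). The black lines climb to mot1-14, while DDI2 and DDI3 stay near or above 1 in all 3 strains and YRF1-6, YML133C and YRF1-3 are highest in TBP-F207L.

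The other genes near chromosome ends rose more often than they fell in each mutant, as did all genes by a narrower margin. Among the 10 outermost protein-coding genes of each chromosome end, with COS members left out, 289 were tested. In TBP-F207L 133 rose, 84 fell and 72 did not pass, and in TBP-Y185C 138 rose, 85 fell and 66 did not pass. In mot1-14 153 rose, 47 fell and 89 did not pass. Over all genes, 40.3% were higher and 38.8% lower in TBP-F207L, 41% and 38.8% in TBP-Y185C, and 37.2% and 34.9% in mot1-14. Their median log2 ratio was 0.07 in TBP-F207L, 0.09 in TBP-Y185C and 0.12 in mot1-14. Of the 280 measured on both mot1-14 arrays, 47 (16.8%) had a log2 ratio of 0.5 or more on both, against 11.8% of all genes. A ratio of 1 or more on both was met by 17 (6.07%), against 3.79% of all genes. In the comparison of the bypass strains 75 of 289 (26%) were lower in TBP-F207L, against 21.8% of all genes. In the same comparison 49 (17%) were higher, against 15.4% of all genes. The 2 highest in mot1-14 were HXK1, a hexokinase gene, and MSC1, which is linked to meiotic recombination. HXK1 had 0.92 in TBP-F207L, 1.04 in TBP-Y185C and 2.14 in mot1-14, and MSC1 had 2.13, 2.33 and 1.95 in the same strains. The 2 lowest in mot1-14 were FDC1, a ferulic acid decarboxylase gene, with -1.49 in TBP-F207L, -1.71 in TBP-Y185C and -1.77 in mot1-14, and GTT2, a glutathione transferase gene, with -1.23, -0.95 and -1.43.

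COS10, a COS gene that is not among the 10, did not share the pattern. It had log2 ratios of -0.12 in TBP-F207L (adjusted p = 0.0251, limma), -0.12 in TBP-Y185C (adjusted p = 0.0267, limma) and -0.05 in mot1-14 (adjusted p = 0.327, limma). Its probe was dim, with signals of 1.77 to 4.84 times background. COS111, which shares only the letters of the name, rose by a log2 of 0.35 in TBP-F207L, 0.55 in TBP-Y185C and 0.55 in mot1-14.

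The DUP240 genes are a related family of membrane protein genes, and 10 of them were measured. In TBP-F207L 4 rose and 3 fell, in TBP-Y185C 3 rose and 3 fell, and in mot1-14 6 rose and 2 fell. Of all genes, 40.3% rose and 38.8% fell in TBP-F207L, 41% and 38.8% in TBP-Y185C, and 37.2% and 34.9% in mot1-14. Their medians were 0.05 in TBP-F207L, 0.02 in TBP-Y185C and 0.14 in mot1-14. DFP4, at place 8 from the same end of chromosome VIII as COS8, had log2 ratios of 0.00 and 0.09 on the TBP-F207L arrays, 0.70 and 0.77 on the TBP-Y185C arrays, and 1.34 and 1.58 on the mot1-14 arrays. Its difference of TBP-F207L from TBP-Y185C was -0.69 (adjusted p = 0.000849, limma). UIP3 had 1.29 in TBP-F207L, 1.42 in TBP-Y185C and 0.95 in mot1-14, and so stayed above WT in the bypass strains. MST27 and MST28, whose proteins bind coat proteins of transport vesicles, fell in all 3 mutants, with -0.46 and -0.55 in TBP-F207L, -0.23 and -0.39 in TBP-Y185C, and -0.15 and -0.22 in mot1-14.

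Genes for the sorting machinery that Cos proteins work with mostly rose in all 3 mutants. Of 20 genes for ESCRT complexes and multivesicular body sorting, 17 rose and 0 fell in TBP-F207L and in TBP-Y185C. In mot1-14 14 rose and 1 fell. The shares over all genes were 40.3% higher and 38.8% lower in TBP-F207L, 41% and 38.8% in TBP-Y185C, and 37.2% and 34.9% in mot1-14. The medians were 0.46 in TBP-F207L, 0.46 in TBP-Y185C and 0.21 in mot1-14, beside COS medians of -0.19, 0.06 and 1.17 in the same strains, and the difference of the list between strains was not tested. VPS60, an ESCRT-III-related gene, had 1.11 in TBP-F207L, 1.08 in TBP-Y185C and 0.70 in mot1-14, and MVB12, an ESCRT-I subunit gene, had 0.32, 0.47 and 0.85, in the order of the COS genes. VPS27, which binds ubiquitinated cargo at the endosome, had 0.29, 0.09 and 0.12, and of these the TBP-Y185C value did not pass (adjusted p = 0.0795, limma). VPS4, the ATPase that takes ESCRT-III apart, had 0.03 in TBP-F207L (adjusted p = 0.488, limma), 0.14 in TBP-Y185C and -0.18 in mot1-14, the 1 fall of the list there. STP22, an ESCRT-I subunit gene, had -0.05, -0.07 and -0.03 and passed in none of the 3 (adjusted p = 0.205, 0.0729 and 0.432, limma).

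RSP5, the ubiquitin ligase gene of this pathway, fell to -0.74 in TBP-F207L, -0.44 in TBP-Y185C and -0.23 in mot1-14. Over RSP5 and 16 adaptor genes together, 9 rose and 3 fell in TBP-F207L and 8 rose and 7 fell in TBP-Y185C. In mot1-14 4 rose and 6 fell. Of all genes, 40.3% rose and 38.8% fell in TBP-F207L, 41% and 38.8% in TBP-Y185C, and 37.2% and 34.9% in mot1-14. The adaptor ROG3 had the highest ratio in mot1-14, with 0.05 in TBP-F207L (adjusted p = 0.276, limma), 0.42 in TBP-Y185C and 0.64 in mot1-14. ROD1 had 0.40, 0.44 and 0.27 in the same strains. LDB19 had -0.10 in TBP-F207L (adjusted p = 0.169, limma), -0.25 in TBP-Y185C and -0.39 in mot1-14. BUL2 had -0.06 in TBP-F207L (adjusted p = 0.362, limma), -0.19 in TBP-Y185C and -0.27 in mot1-14.

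Of 20 genes with a part in telomeric silencing, 6 rose and 11 fell in TBP-F207L and 5 rose and 13 fell in TBP-Y185C. In mot1-14 0 rose, 11 fell and 9 did not pass. The shares over all genes were 40.3% higher and 38.8% lower in TBP-F207L, 41% and 38.8% in TBP-Y185C, and 37.2% and 34.9% in mot1-14. The medians were -0.14 in TBP-F207L, -0.17 in TBP-Y185C and -0.12 in mot1-14. SIR2, the deacetylase of silent chromatin, fell to -0.51 in TBP-F207L, -0.79 in TBP-Y185C and -0.53 in mot1-14. SIR4, a structural protein of silent chromatin, fell to -0.14, -0.20 and -0.31 in the same strains. SIR3, its partner, rose by 0.40 in TBP-F207L and 0.21 in TBP-Y185C and had -0.02 in mot1-14 (adjusted p = 0.788, limma). RAP1, the telomere-binding factor, fell to -0.79, -1.18 and -0.87, and the deacetylase gene HST1 fell to -0.52, -0.51 and -0.65. SAS4, of a histone acetyltransferase complex, had 0.15, 0.12 and 0.07, and YKU70, of the DNA end-binding complex, had 0.20, 0.25 and 0.05, neither passing in mot1-14 (adjusted p = 0.156 and 0.232, limma).

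The genes outside the family closest to its median over the 6 arrays, by root mean square difference of the log2 ratios, were FMS1, IML2, PRY1, TIR3 and DSD1. FMS1, a polyamine oxidase gene, had a log2 ratio of -0.11 in TBP-F207L, 0.22 in TBP-Y185C and 1.11 in mot1-14, with a root mean square difference of 0.146. IML2 differed by 0.147 and had -0.03 in TBP-F207L, 0.05 in TBP-Y185C and 0.99 in mot1-14. PRY1, a secreted sterol-binding protein gene, differed by 0.182, TIR3, a cell wall mannoprotein gene, by 0.185 and DSD1, a D-serine dehydratase gene, by 0.232. Among the members, COS2 was nearest to the family median at 0.160 and COS7 farthest at 0.414. By the largest Pearson correlation over the 6 arrays the 5 were HSP31, CPR3, CLB1, YIR043C and YLL053C, and 0 genes were on both lists.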

How the data were processed

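The deposited scanner files, made with Agilent Feature Extraction 7.5.1 per the file headers, give mean and background intensity in each channel and the log10 ratio of red over green processed signal. The authors' series table, deposited as log2 of red over green and found so by setting it against the scanner values, has column medians of -0.026 to 0.025, is not turned to mutant over WT and served as an alternative. Mean signals were corrected with normexp (offset 50) and loess-normalized in limma 3.58.1 (R 4.3.3). Control spots had weight 0, spots marked as outliers, up to 3.22% on an array, were left out, and spots of a probe were averaged. A probe was tested if at least 2 arrays had it well above background in a channel (24 were not). Each gene had 1 probe. One limma model over 6 arrays held a coefficient per mutant, signed by dye, and a dye intercept, with 2 residual and 4.81 prior degrees of freedom. Benjamini-Hochberg adjustment ran over 6232 genes at 0.05. The WT strain was the reference on all arrays, and the model treated it as 1 control sample. The procedure was tested on simulated data.

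Gene names and order came from the R64 reference table, which matched 5756 probes; the files name no build. Genes named are the members, COS10 and COS111, the adjacent genes, per list the 2 highest and 2 lowest in mot1-14 plus VPS27, VPS4, RSP5, SIR2, SIR3 and SIR4, and the 5 genes nearest the family median. The table gives no chromosome lengths, so the 10 outermost genes of each end, chosen after seeing the data, replaced a distance of 20 kb. Members and lists were chosen with earlier results of these data known. Alternatives changed the background correction, normalization, signal, probe filter, dye term, spot flags and arrays used.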

Additional observations from a re-analysis of the deposited data

Results flagged for a closer look

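For 7 members the effect against WT differed between the bypass strains by the limma test of the difference itself. Their probes may share signal, so the 7 may not be separate results. Both comparisons used the same WT strain as reference, and the labels do not say whether it was the same RNA. COS1 differed by -0.65, with -0.70 in TBP-F207L and -0.04 in TBP-Y185C. COS5 differed by -0.52, with -0.51 in TBP-F207L and 0.01 in TBP-Y185C, and COS9 by -0.31, with -0.38 and -0.07. For COS2 (-0.51), COS3 (-0.45) and COS6 (-0.29) the TBP-F207L arrays lay below WT and the TBP-Y185C arrays above it. The share of all genes placed in this way was not counted. COS4 differed by -0.36 and was above WT in both strains, at 0.17 in TBP-F207L and 0.53 in TBP-Y185C. The direction was the same at both dye orientations for all 7. Each strain's arrays share a slide, so a slide effect and a strain effect cannot be told apart.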

How the results depend on the processing

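Over the alternatives run, the family median was 1.09 to 1.22 in mot1-14 and -0.98 to -0.85 for TBP-Y185C minus mot1-14, less than 1 SD between arrays from the reported values. The median of TBP-F207L minus mot1-14 was -1.51 in both the deposited log ratios and the series table. The median of TBP-F207L minus TBP-Y185C was -0.44 with normexp offset 0, -0.49 in the deposited log ratios, -0.48 in the series table and -0.45 without COS7, COS8 and COS12, an alternative chosen after seeing the data. The TBP-F207L median was -0.29 with offset 0, -0.26 with median centring, -0.36 in the deposited log ratios and -0.34 in the series table. The TBP-Y185C median was 0.11 with median centring and 0.11 without COS7, COS8 and COS12, and turned to -0.0123 in the deposited log ratios and -0.0122 in the series table. With median centring in place of loess, 3 members reached 1 on both mot1-14 arrays in place of 6, 2 were below WT in TBP-Y185C in place of 4, and 1, COS7, was higher in TBP-F207L than in TBP-Y185C (0.30, adjusted p = 0.0355, limma). With no dye intercept 1 member was lower in TBP-F207L than in TBP-Y185C in place of 7. The cause of these shifts was not tested.

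Single members turned sign near 0. With median centring, COS1 in TBP-Y185C was 0.081 and COS9 in TBP-Y185C was 0.044. Leaving out 1 array gave -0.13 to 0.054 for COS1 in TBP-Y185C, -0.16 to 0.040 for COS7 in TBP-F207L and -0.33 to 0.028 for COS8 in TBP-F207L, in each case above 0 without array 2 of that strain. COS7, TBP-F207L minus TBP-Y185C, was -0.029 with offset 0, -0.10 in the deposited log ratios, -0.0064 in the series table, and -0.058 to 0.14 with 1 array left out, the lowest without TBP-F207L replicate 1.

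Leaving out 1 array at a time, the lone array being assumed to vary like the others, gave family medians of -0.27 to -0.19 in TBP-F207L, 0.011 to 0.113 in TBP-Y185C and 1.09 to 1.19 in mot1-14. Members lower in TBP-F207L than in TBP-Y185C numbered 6 to 9. No paired analysis was possible because replicate numbers stand for the dye orientation. Slide as a block was not run, since each slide holds 1 mutant. Of the 5 outermost genes per chromosome end, 8 of 138 fell in mot1-14, against 47 of 289 of the 10 outermost.

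List counts moved by over a factor of 1.5 in 31 recomputations and by less in 485. With median centring, DUP240 genes in mot1-14 rose in 3 cases in place of 6 and fell in 1 in place of 2, neighbours in TBP-Y185C rose in 8 in place of 13 and fell in 0 in place of 2, 1 neighbour fell in TBP-F207L, and RSP5 and adaptors in TBP-Y185C rose in 5 in place of 8 and fell in 4 in place of 7. In the deposited log ratios and the series table, 1 ESCRT gene fell in TBP-F207L and 2 in TBP-Y185C in place of 0, and 3 silencing genes rose in TBP-Y185C in place of 5. The series table also had 1 silencing gene higher in mot1-14 in place of 0. With no dye intercept, 1 DUP240 gene fell in mot1-14, 0 neighbours and 4 of RSP5 and adaptors fell in TBP-Y185C, and 3 silencing genes rose there. Without array 2 of mot1-14, 3 DUP240 genes rose in place of 6 and 0 ESCRT genes fell in place of 1. Without array 1 of TBP-Y185C, 2 of RSP5 and adaptors fell in place of 7 and 2 silencing genes rose in place of 5, and without array 2 of that strain 0 neighbours fell in place of 2. Without array 2 of TBP-F207L, 1 of RSP5 and adaptors fell in place of 3. Precision is limited by 2 arrays per strain and, for COS7, COS8 and COS12, by signal near background.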

Other observations

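YIR043C, which the R64 table lists as a pseudogene that takes in YIR044C, was singled out after its values were seen. It had log2 ratios of -0.39 and -0.47 on the TBP-F207L arrays, -0.02 and -0.09 on the TBP-Y185C arrays, and 2.0 and 2.14 on the mot1-14 arrays. The separate probe for YIR044C had -0.26 and -0.47 in TBP-F207L, 0.03 and -0.12 in TBP-Y185C, and 0.62 and 0.74 in mot1-14. YIR043C was one of the 5 genes picked for the highest correlation with the family median over the 6 arrays (r = 0.996), so its likeness to the COS genes is not a test. Whether its probe shares signal with the COS probes could not be computed.

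The dim COS probes were brighter in both channels on array 1 of TBP-F207L than on array 2. In red (Cy5) the median gene spot was also brighter, at 22.7 times background on array 1 and 8.05 times on array 2. In green (Cy3) it was 9.39 and 10.2 times. The red difference was thus general to the array. The mutant was in red on array 1 and in green on array 2. The mutant and WT signals were 7.88 and 3.80 times background for COS7 on array 1 and 1.40 and 1.33 times on array 2. They were 10.8 and 5.01 times for COS8 on array 1 and 3.12 and 3.19 times on array 2, and 4.69 and 3.15 times for COS12 on array 1 and 1.59 and 2.09 times on array 2.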
